A study of Mus musculus with 12 samples.

Results

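The neural lineage genes described here are Pax6, Nes, Sox1, Sox2, Sox3, Pax3, Zic1 and Olig2, 8 of the 23412 genes of the count table. They were chosen by name as markers of neural cells, with earlier results of these data known, and every name was found. The RNA came from male v6.5 mouse embryonic stem cells (mESCs) kept in serum with LIF on gelatin, and the question is how the absence of the nucleosome-binding proteins HMGN1 and HMGN2 bears on these genes. Poly-A RNA was sequenced in 12 libraries, 3 biological replicates of each of 4 genotypes. WT mESCs are the unedited line. Each single knockout line is homozygous for a change of 1 bp in the edited gene. A base is lost from exon 3 of Hmgn1 in the Hmgn1-/- line and gained in exon 4 of Hmgn2 in the Hmgn2-/- line. For Hmgn1-/-Hmgn2-/- mESCs, Hmgn1 was edited in cells of the Hmgn2-/- line, and both genes carry the same changes as in the single lines. Each edited line grew from a single cell, so the effect of a genotype and that of its clone cannot be told apart. No sample is a neural cell, so the values below are levels in undifferentiated cultures.

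The WT libraries held 31448468, 17614490 and 28524108 counts in replicates 1, 2 and 3. In Hmgn1-/- mESCs the totals were 25953244, 21059862 and 21993042 counts. They were 25908890, 26486535 and 17337908 in Hmgn2-/- mESCs, and 31005479, 22151507 and 26410485 in Hmgn1-/-Hmgn2-/- mESCs. Levels are in CPM, counts scaled to a common library total, here with the factors of the trimmed mean of M values (TMM), and carry no correction for gene length unless one is stated. A gene with at most 3 counts in every library of a group is at the floor, and 3 counts correspond to 0.0938 to 0.178 CPM in these libraries. Reads carry no molecular identifiers here, so this floor covers counting error only.

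Some libraries stood apart from their group. Among the 11555 genes that averaged 50 counts or more, 572 (4.95%) lay more than 1.5-fold from the mean of the other replicates in Hmgn2-/- replicate 3, the shallowest library. The same held for 340 genes (2.94%) in WT replicate 1 and for 328 genes (2.84%) in Hmgn2-/- replicate 1. In the other libraries it held for 61 genes (0.528%) to 141 genes (1.22%). The fold changes of the 8 genes against WT that use these 3 libraries are given with and without them, as are the counts over all the neural lists, and the calls that changed are given for 21 of the other genes.

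In the embryo, Sox1, Sox2 and Sox3 encode closely related transcription factors of the SoxB1 group that mark the neural plate, and Sox2 is also part of the pluripotency network. Pax6, Pax3, Zic1 and Olig2 encode transcription factors that pattern the neural tube along its axes, and Nes encodes nestin, an intermediate filament protein of neural progenitors. Embryonic stem cells can take a neural fate when signals that hold them pluripotent are withdrawn, and low levels of lineage genes are common in serum cultures.

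The edited genes themselves were read first. Hmgn1 had 663, 600 and 614 CPM in the WT libraries, 138, 139 and 141 in Hmgn1-/-, 545, 556 and 640 in Hmgn2-/-, and 21.5, 19.9 and 21.4 in Hmgn1-/-Hmgn2-/- mESCs. Its RNA was low in both lines with an edited Hmgn1, lowest in the double knockout, and overlapped with WT in the Hmgn2-/- line. The log2 fold change of Hmgn1 against WT was -2.16 ± 0.0568 (SE) in Hmgn1-/- mESCs (adjusted p 3.36e-11) and -4.89 in Hmgn1-/-Hmgn2-/- mESCs (adjusted p 8.56e-15). Hmgn2 had 137, 123 and 120 CPM in WT, 105, 113 and 109 in Hmgn1-/-, 50.7, 54.5 and 53.8 in Hmgn2-/-, and 53.9, 50.5 and 54.2 in Hmgn1-/-Hmgn2-/- mESCs. Both lines with an edited Hmgn2 were low and alike, and the Hmgn1-/- libraries were a little below WT without overlap. The log2 fold change of Hmgn2 was -1.24 ± 0.0847 (SE; adjusted p 5.73e-06) in Hmgn2-/- and -1.25 ± 0.0683 (SE; adjusted p 1.95e-08) in Hmgn1-/-Hmgn2-/- mESCs.

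Adjusted p-values here are those of the quasi-likelihood test of edgeR, adjusted by Benjamini-Hochberg over all genes tested, for each knockout against WT and for the knockouts against each other. The threshold was an adjusted p under 0.01 together with a log2 fold change of at least 1 in size. The words rose and fell are used below for an adjusted p under 0.05 with no fold limit. The 3 comparisons with WT share their WT libraries, so their values are given side by side and are not independent of each other. In bulk RNA, fewer cells that express a gene and less of its RNA in each cell cannot be told apart.

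Sox2, at chr3:34649995-34652461 on the plus strand of GRCm38.p6 (RefSeq), has a single exon and is the SoxB1 factor that stem cells themselves require. It had 534, 538 and 546 CPM in WT mESCs, 576, 594 and 582 in Hmgn1-/-, 530, 538 and 523 in Hmgn2-/-, and 505, 499 and 532 in Hmgn1-/-Hmgn2-/- mESCs. All Hmgn1-/- libraries lay above WT and all double knockout libraries just below it, while Hmgn2-/- overlapped with WT. The log2 fold change against WT was 0.12 ± 0.0479 (SE; adjusted p 0.0794) in Hmgn1-/- mESCs. It was -0.01 ± 0.0681 (SE; adjusted p 0.925) in Hmgn2-/- and -0.07 ± 0.0496 (SE; adjusted p 0.325) in Hmgn1-/-Hmgn2-/- mESCs. None of these passed. The 95% interval reached from 0.02 to 0.22 in Hmgn1-/-, from -0.16 to 0.14 in Hmgn2-/- and from -0.18 to 0.04 in the double knockout. Without WT replicate 1 the log2 fold changes of Sox2 were 0.11, -0.03 and -0.08 in that order, and that of Hmgn2-/- mESCs was 0 without replicate 3 and -0.02 without replicate 1, with none past the limit.

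Sox1, at chr8:12395519-12399555 on the plus strand, also has 1 exon and is used as the most specific early marker of the neural plate among the SoxB1 genes. It had 17.1, 17.3 and 17.2 CPM in WT, 28.1, 24.7 and 23.8 in Hmgn1-/-, 33.1, 27.0 and 22.3 in Hmgn2-/-, and 31.2, 28.4 and 30.4 in Hmgn1-/-Hmgn2-/- mESCs. Every knockout library was above every WT library, the WT values were nearly equal, and the Hmgn2-/- replicates were the most spread. Against WT, Sox1 rose by a log2 fold change of 0.58 ± 0.0914 (SE; adjusted p 0.000343) in Hmgn1-/- mESCs and of 0.69 ± 0.134 (SE; adjusted p 0.00447) in Hmgn2-/- mESCs. The rise in Hmgn1-/-Hmgn2-/- mESCs was 0.81 ± 0.0822 (SE; adjusted p 7.83e-06), and the mean there was 174% of WT. For Hmgn2-/- mESCs the log2 fold change was 0.81 (adjusted p 0.00021) without replicate 3, 0.53 (adjusted p 0.00887) without replicate 1, and 0.68 (adjusted p 0.0178) without WT replicate 1. Without WT replicate 1 it was 0.57 (adjusted p 0.000147) in Hmgn1-/- and 0.80 (adjusted p 1.57e-06) in the double knockout.

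Sox3, at chrX:60891366-60893430 on the minus strand, is the X-linked SoxB1 gene and has 1 exon. It had 14.2, 15.8 and 17.5 CPM in WT, 8.06, 9.65 and 6.79 in Hmgn1-/-, 8.98, 8.14 and 8.09 in Hmgn2-/-, and 12, 9.54 and 11.2 in Hmgn1-/-Hmgn2-/- mESCs. Every knockout library was below every WT library, and the double knockout lay between WT and the single knockouts, its lowest library within the range of Hmgn1-/-. Sox3 fell in all 3 lines, the opposite direction to Sox1. Its log2 fold change was -0.95 ± 0.135 (SE; adjusted p 0.000138) in Hmgn1-/- and -0.90 ± 0.124 (SE; adjusted p 0.000548) in Hmgn2-/- mESCs, against -0.53 ± 0.117 (SE; adjusted p 0.00394) in Hmgn1-/-Hmgn2-/- mESCs. Means were 51.5%, 53% and 68.9% of WT in that order. The Hmgn1-/- value sits at the fold limit: it passed the threshold without WT replicate 1 (log2 fold change -1.03, adjusted p 2.41e-06) and without Hmgn1-/- replicate 2 (log2 fold change -1.09, adjusted p 0.000168). The Hmgn2-/- fall was -0.88 without replicate 3, -0.96 without replicate 1 and -0.98 without WT replicate 1, and in the double knockout -0.61 without WT replicate 1.

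**Figure D1:**
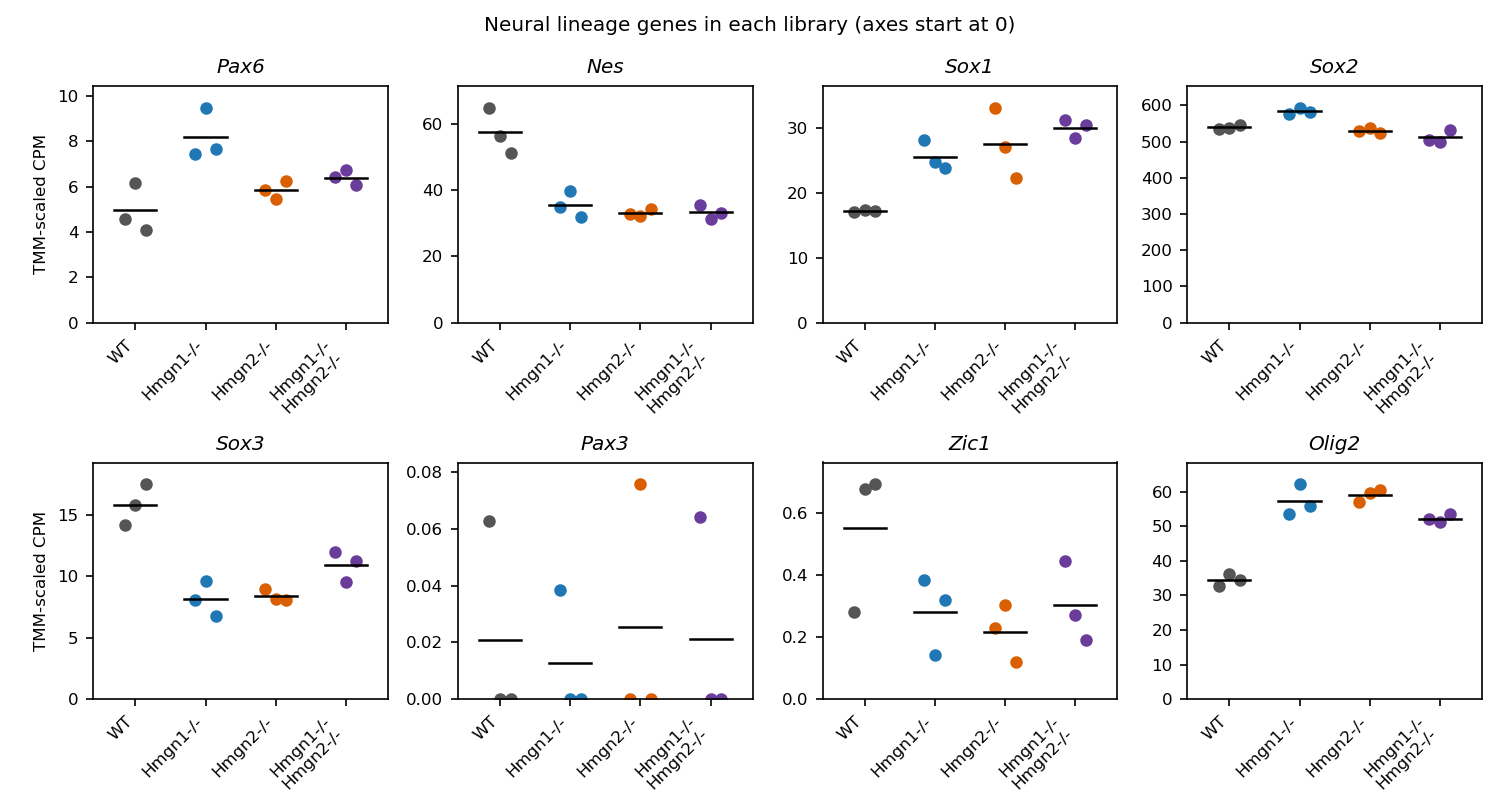
TMM-scaled CPM of each of the 8 genes (vertical axes, all from 0) in the 12 libraries, with 1 point per library, colours for genotypes and a line at the mean of 3. Nes and Sox3 are lower and Sox1 and Olig2 higher in every knockout library than in every WT library, and Pax3 stays under 0.08 CPM.

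Pax6 encodes a paired-box factor of the dorsal forebrain and the eye, and lies at chr2:105668896-105698410 on the plus strand. It had 4.60, 6.17 and 4.10 CPM in WT, 7.44, 9.50 and 7.66 in Hmgn1-/-, 5.87, 5.45 and 6.24 in Hmgn2-/-, and 6.43, 6.73 and 6.07 in Hmgn1-/-Hmgn2-/- mESCs. WT replicate 2 was the high one of its group and overlapped with Hmgn2-/- and with the double knockout, while the Hmgn1-/- libraries were above all others. Pax6 rose in Hmgn1-/- mESCs, with a log2 fold change of 0.75 ± 0.17 (SE; adjusted p 0.00432) and a mean of 166% of WT. In Hmgn2-/- mESCs its log2 fold change was 0.27 ± 0.179 (SE; adjusted p 0.359), and in Hmgn1-/-Hmgn2-/- mESCs 0.40 ± 0.162 (SE; adjusted p 0.0832), neither past the limit. The double knockout value depended on WT replicate 2, without which it was 0.56 (adjusted p 0.0232), and with a replicate block its adjusted p was 0.0419. The Hmgn1-/- value was 0.71 (adjusted p 0.00376) without WT replicate 1. That of Hmgn2-/- mESCs was 0.22 both without its replicate 3 (adjusted p 0.445) and without WT replicate 1 (adjusted p 0.532). Leaving out Hmgn2-/- replicate 1 gave 0.26 (adjusted p 0.452). The Hmgn2-/- value moved further with the other WT libraries, to 0.43 (adjusted p 0.166) without WT replicate 2 and to 0.14 (adjusted p 0.76) without WT replicate 3. In the double knockout it was 0.36 (adjusted p 0.132) without WT replicate 1 and 0.27 (adjusted p 0.309) without WT replicate 3.

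Pax3, a dorsal neural tube and neural crest gene at chr1:78101267-78197136 on the minus strand, had from 0 to 2 counts per library. Its counts summed over 3 libraries to 2 in WT, 1 in Hmgn1-/-, 2 in Hmgn2-/- and 2 in Hmgn1-/-Hmgn2-/- mESCs. It was at the floor in every group, so no fold is given, and a difference was not detectable at this depth.

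Zic1, a zinc finger gene of the dorsal neural tube at chr9:91358058-91365768 on the minus strand, had 0.282, 0.679 and 0.695 CPM in WT and 0.384, 0.143 and 0.321 in Hmgn1-/- mESCs. It had 0.23, 0.303 and 0.119 CPM in Hmgn2-/- and 0.448, 0.271 and 0.19 in Hmgn1-/-Hmgn2-/- mESCs. WT replicates 2 and 3 were the highest of the 12 libraries, but WT replicate 1 was among the knockouts, so the groups overlapped. These levels rest on 41, 20, 16 and 25 counts summed over the 3 libraries of WT, of Hmgn1-/-, of Hmgn2-/- and of double knockout mESCs. Among the comparisons of 2 genotypes, Zic1 passed the filter on low counts only in the double knockout against WT, where its log2 fold change was -0.76 ± 0.48 (SE; adjusted p 0.258). WT replicate 1 bears on it: without that library Zic1 was also tested in Hmgn2-/- mESCs, with a log2 fold change of -1.56 (adjusted p 0.0449), and in Hmgn1-/- mESCs, with -1.23 (adjusted p 0.0591). Without it the double knockout gave -1.13 (adjusted p 0.0754), and over all libraries left out in turn that value ran from -1.2 to -0.50. In Hmgn2-/- mESCs the value was -0.98 (adjusted p 0.221) without replicate 3 and -1.2 (adjusted p 0.22) without replicate 1. For Hmgn1-/- mESCs it was only -0.58 (adjusted p 0.49) without Hmgn1-/- replicate 2 and -0.73 (adjusted p 0.4) without WT replicate 2.

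Olig2 encodes a basic helix-loop-helix factor of motor neuron and oligodendrocyte progenitors, and lies at chr16:91225550-91228677 on the plus strand in 2 exons. It had 32.6, 36.3 and 34.4 CPM in WT, 53.6, 62.2 and 55.8 in Hmgn1-/-, 57.0, 59.7 and 60.6 in Hmgn2-/-, and 52.2, 51.1 and 53.4 in Hmgn1-/-Hmgn2-/- mESCs. All 9 knockout libraries were far above the WT libraries, with the double knockout the lowest of the knockouts. Olig2 rose by a log2 fold change of 0.74 ± 0.0768 (SE; adjusted p 9.68e-06) in Hmgn1-/- and of 0.79 ± 0.0843 (SE; adjusted p 0.000102) in Hmgn2-/- mESCs. The rise in Hmgn1-/-Hmgn2-/- mESCs was 0.61 ± 0.0703 (SE; adjusted p 2.34e-05). Without Hmgn2-/- replicate 3 the Hmgn2-/- value was 0.77 (adjusted p 3.83e-05), without replicate 1 it was 0.81, and without WT replicate 1 it was 0.75. Leaving out WT replicate 1 gave 0.70 in Hmgn1-/- and 0.57 in Hmgn1-/-Hmgn2-/- mESCs.

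Nes, the gene of the intermediate filament protein nestin at chr3:87971093-87980451 on the plus strand, had 64.9, 56.3 and 51.3 CPM in WT and 34.8, 39.6 and 31.9 in Hmgn1-/- mESCs. It had 32.8, 32.2 and 34.3 CPM in Hmgn2-/- and 35.5, 31.2 and 33.2 in Hmgn1-/-Hmgn2-/- mESCs. The knockout libraries were close together, well under all WT libraries, of which replicate 1 was the highest. Nes fell, with a log2 fold change of -0.70 ± 0.098 (SE; adjusted p 0.00013) in Hmgn1-/- and of -0.79 ± 0.102 (SE; adjusted p 0.000363) in Hmgn2-/- mESCs. The value in Hmgn1-/-Hmgn2-/- mESCs was -0.78 ± 0.0908 (SE; adjusted p 2.41e-05), with a mean of 57.9% of WT. Without WT replicate 1 the fall was smaller, at -0.60, -0.70 and -0.69 in the same order, with adjusted p of at most 0.00121. The Hmgn2-/- value was -0.82 without replicate 3 and -0.79 without replicate 1.

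Sox1, Sox3, Nes and Olig2 each differed from WT in 1 direction in all 3 knockout lines, and the promoters of Nes, which fell, and of Sox1 and Olig2, which rose, are printed to show what lies at their starts. RefSeq promoters of GRCm38.p6, 300 bases from 250 before to 50 after the start, were matched for 6 of the 8 genes in 7 entries: Pax6, Nes, Sox1, Sox2, Zic1 and Olig2. The Nes window is chr3:87970843-87971142, that of Sox1 is chr8:12395269-12395568 and that of Olig2 is chr16:91225300-91225599, each on the plus strand. Capitals mark matches on either strand to GGGCGG (the GC box), CCAAT and TATAAA, whose letters do not overlap each other in these windows.
Nes: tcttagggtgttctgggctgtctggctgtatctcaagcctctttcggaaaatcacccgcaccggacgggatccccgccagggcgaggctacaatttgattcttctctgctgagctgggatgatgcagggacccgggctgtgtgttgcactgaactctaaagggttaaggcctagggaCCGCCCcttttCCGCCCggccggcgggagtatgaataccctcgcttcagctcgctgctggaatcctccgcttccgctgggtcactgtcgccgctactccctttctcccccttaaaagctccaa
Sox1: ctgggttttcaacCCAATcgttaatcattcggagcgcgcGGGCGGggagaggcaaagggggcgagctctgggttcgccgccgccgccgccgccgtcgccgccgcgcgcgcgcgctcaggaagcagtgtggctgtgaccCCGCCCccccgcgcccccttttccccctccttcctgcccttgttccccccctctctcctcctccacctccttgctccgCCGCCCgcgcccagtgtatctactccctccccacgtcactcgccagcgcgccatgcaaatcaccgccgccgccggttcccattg
Olig2: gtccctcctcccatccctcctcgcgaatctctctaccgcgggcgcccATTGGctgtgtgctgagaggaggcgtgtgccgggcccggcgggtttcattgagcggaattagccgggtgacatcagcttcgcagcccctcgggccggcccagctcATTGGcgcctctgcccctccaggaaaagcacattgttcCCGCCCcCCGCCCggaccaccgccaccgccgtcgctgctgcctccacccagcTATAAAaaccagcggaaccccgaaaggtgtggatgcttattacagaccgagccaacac
GGGCGG had 2 matches in the Nes window, 3 in that of Sox1 and 2 in that of Olig2, and it is present in 35.7% of all 32851 promoters of the table. CCAAT had no match in Nes, 1 in Sox1 and 2 in Olig2, and is in 37.4% of promoters. TATAAA had 1 match, in Olig2, and is in 13.6% of promoters. The windows held 18 CpG in Nes, 37 in Sox1 and 25 in Olig2, against a median of 7 over all promoters. A match is a description of letters and not a site.

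The counts of these genes read as follows against all genes tested. Since the genes were chosen with earlier results of these data known, an excess over all genes is a description only. In Hmgn1-/- against WT, DESeq2 had 0 of 8 past the full threshold, Pax3 being without an adjusted p, where 800 of 18653 genes were. By edgeR it was 0 of the 6 that passed the filter on low counts, where 5.98% of all genes were. At an adjusted p under 0.05 with no fold limit, 5 of 6 differed, where 28.4% of 13917 genes did, and 6 of 6 had an unadjusted p under 0.05, where 38.7% of genes had. Pax6, Sox1 and Olig2 made 3 higher, where 13.3% of genes were higher, and Nes and Sox3 made 2 lower, where 15.1% were lower. The libraries of the groups did not overlap for 6 of 6, where 42.0% of all genes did not overlap.

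In Hmgn2-/- against WT, DESeq2 had 0 of 8 past the threshold, Pax3 again without an adjusted p, where 808 of 18668 genes were. By edgeR it was 0 of 6, where 5.15% of all genes were. With no fold limit 4 of 6 differed, where 18.9% of 14047 genes did, and 4 had an unadjusted p under 0.05, where 31% of genes had. Sox1 and Olig2 were the 2 higher, beside 7.63% of all genes, and Nes and Sox3 the 2 lower, beside 11.2%. Groups did not overlap for 4 of 6, beside 35.8% of all genes.

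In Hmgn1-/-Hmgn2-/- against WT, DESeq2 had 0 of 8 past the threshold, Pax3 again without an adjusted p, where 851 of 18696 genes were. By edgeR 7 were tested, and 0 were past it, where 6.30% of all genes were. With no fold limit 4 of 7 differed, where 29.0% of 14128 genes did, and 5 had an unadjusted p under 0.05, where 38.9% of genes had. The same genes as in Hmgn2-/- mESCs made 2 higher, beside 13.5% of all genes, and 2 lower, beside 15.5%. Groups did not overlap for 5 of 7, beside 42.4% of all genes.

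**Figure D2:**
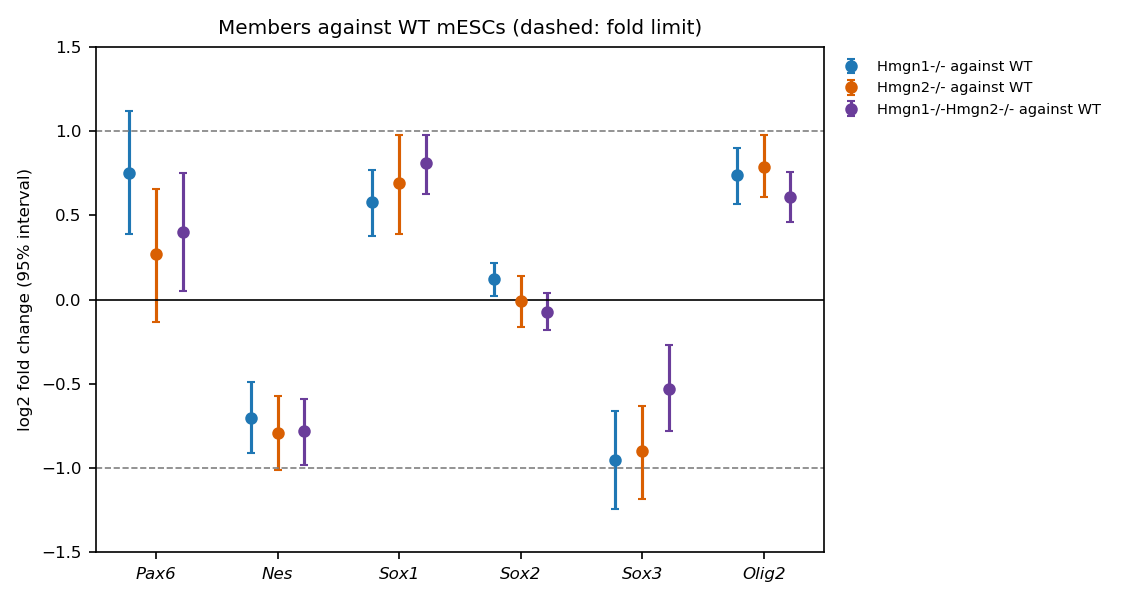
Log2 fold change against WT (vertical axis) of the 6 genes tested in every comparison, with 95% intervals from edgeR, coloured by knockout line, and dashed lines at the fold limit of 1. Sox1 and Olig2 lie above 0 and Nes and Sox3 below 0 in all 3 lines, and no point is beyond the limit.

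Between the knockout lines no member passed either limit in the edgeR fits of 6 libraries with the filter on low counts and no block. In Hmgn2-/- against Hmgn1-/-, 0 of 6 differed by edgeR at either limit, where 0.176% of 13648 genes were past the threshold and 0.469% had an adjusted p under 0.05. DESeq2 also gave 0, of 8 tested, and Pax6 alone had an unadjusted p under 0.05 (3.2% of all genes had), with a log2 fold change of -0.49 (adjusted p 0.765). With Hmgn1-/-Hmgn2-/- set against Hmgn1-/-, edgeR gave 0 of 6 at either limit, where 0.511% and 1.82% of 13710 genes did, and 4 of 6 had an unadjusted p under 0.05, where 9.53% of genes had. DESeq2 gave no adjusted p for Pax3, and of the other members it had 0 past the threshold and 1, Sox2, at an adjusted p under 0.05. The log2 fold changes there were -0.19 for Sox2 (adjusted p 0.0725), 0.43 for Sox3 (adjusted p 0.212), -0.35 for Pax6 (adjusted p 0.322) and 0.23 for Sox1 (adjusted p 0.306). With no filter on low counts edgeR gave Sox2 an adjusted p of 0.045. With a replicate block 3 of these had an adjusted p under 0.05, Sox2 at 0.000237, Sox3 at 0.0391 and Sox1 at 0.0495. Over all genes the block raised the number past the threshold from 70 to 95 of 13710. The shares of all genes at an adjusted p under 0.05 by DESeq2, with no filter and with the block are not given. The calls at that limit in these settings therefore cannot be read against all genes. After removal of group means, libraries of the same number in these lines correlated at r from 0.0636 to 0.425. Against the parental Hmgn2-/- line, the double knockout had 0 of 6 past either limit by edgeR, where 0.0434% and 0.261% of 13816 genes did, and 2 had an unadjusted p under 0.05, where 4.44% of genes had. Those were Sox3, with a log2 fold change of 0.38 (adjusted p 0.731), and Olig2, with -0.18 (adjusted p 1). DESeq2 gave 0 past either limit among the members with an adjusted p, which Pax3 and Zic1 lacked. Past the threshold it had 29 of 18365 genes, where edgeR had 6 of 13816, or 32 with a replicate block and 1 to 12 with a library left out. A p that misses the limit does not show that the lines are alike.

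Over all 4 genotypes at once, the quasi-likelihood F test in a fit of the 12 libraries gave 5 of 7 at an adjusted p under 0.01, where 15.4% of 14323 genes were. That share rests on 2203 genes, a number that ranged from 1320 of 14468 without WT replicate 3 to 2746 of 14548 without Hmgn2-/- replicate 3. The adjusted p was 3.28e-06 for Olig2, 1.7e-05 for Nes, 0.000117 for Sox3, 0.000448 for Sox1 and 0.00979 for Pax6. Sox2 at 0.0498 and Zic1 at 0.298 did not pass. Olig2, Nes, Sox3 and Sox1 stayed under the limit whichever of the 12 libraries was dropped, Hmgn2-/- replicate 3 included. Pax6 did so only without WT replicate 2 (adjusted p 0.00326) or Hmgn2-/- replicate 3 (adjusted p 0.00666). Without each of the 10 other libraries Pax6 missed it, with adjusted p up to 0.0502, reached without Hmgn1-/- replicate 2.

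The double knockout can be set beside the sum of the single ones, a contrast chosen after these data had been seen. In the fit of 12 libraries Nes had log2 fold changes of -0.70 in Hmgn1-/- and -0.80 in Hmgn2-/- mESCs, which sum to -1.5, and -0.79 in the double knockout. The departure from the sum was 0.71 ± 0.138 (SE; adjusted p 0.0029). Without Hmgn2-/- replicate 2 that departure was 0.69 with an adjusted p of 0.0103, and without Hmgn2-/- replicate 3 it was 0.74 (adjusted p 0.00198). Olig2 had 0.73 and 0.78, a sum of 1.52, and 0.60 in the double knockout, a departure of -0.91 ± 0.102 (SE; adjusted p 3.45e-05), or -0.90 without Hmgn2-/- replicate 3. Sox3 had -0.96 and -0.91, a sum of -1.87, and -0.53 in the double knockout, which was nearer to WT than either single line. Its departure was 1.34 ± 0.19 (SE; adjusted p 0.000276), or 1.31 (adjusted p 0.00032) without Hmgn2-/- replicate 3. These 3 of 7 genes were past an adjusted p of 0.01, where 6.32% of all genes were, or 905, a number that ran from 582 without WT replicate 3 to 1095 without Hmgn2-/- replicate 3. With a replicate block that number was 1458 of 14323 genes, and by DESeq2 it was 1307 of 19124. For Sox1 the departure was -0.45 (adjusted p 0.0868), but -0.57 (adjusted p 0.00828) without Hmgn2-/- replicate 3 and -0.29 (adjusted p 0.187) without Hmgn2-/- replicate 1, so 1 library decides that call. Pax6 had a departure of -0.61 (adjusted p 0.0773), Sox2 of -0.17 (adjusted p 0.148) and Zic1 of 1.30 (adjusted p 0.293).

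**Figure D3:**
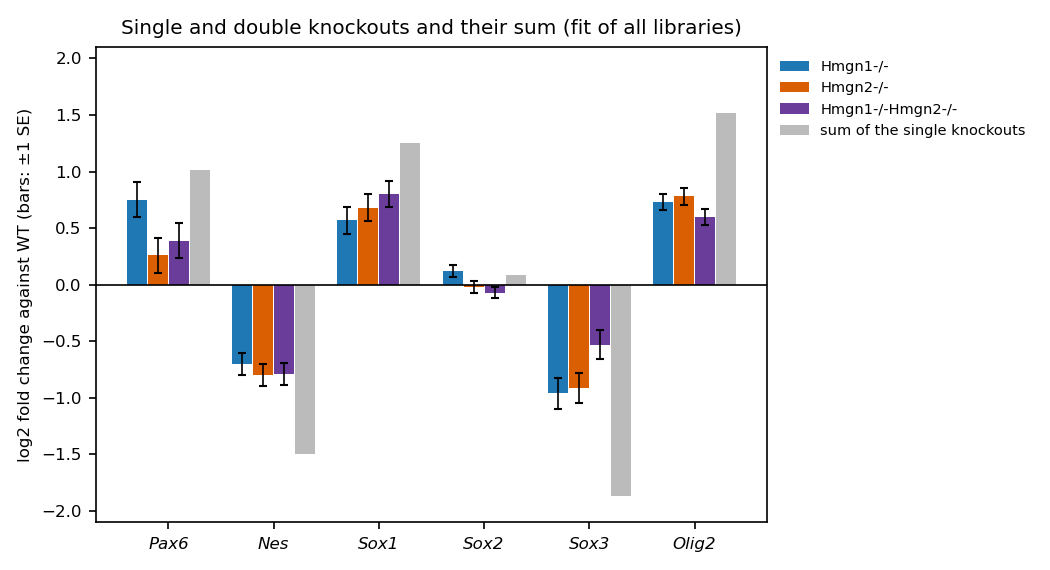
Log2 fold change against WT (vertical axis) of 6 genes in the single and double knockouts from the fit of 12 libraries, with error bars of 1 SE, beside the sum of the single values in grey, drawn without error. For Nes, Sox3 and Olig2 the double knockout bar is far shorter than the grey bar. That of Pax6 is also shorter (0.39 against a sum of 1.01), but its departure did not pass.

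Compared per kb of merged exons, the order of mean levels in WT mESCs was Sox2 (262 CPM per kb), Olig2 (13.6), Nes (8.96), Sox3 (7.67), Sox1 (3.56), Pax6 (0.424), Zic1 (0.0969) and Pax3 (0.00337). Nes and Sox3 overlapped between WT libraries, and the other neighbours in this order did not. In Hmgn1-/- mESCs Nes (5.52 CPM per kb) and Sox1 (5.29) came next after Olig2 (22.6) with overlap, followed by Sox3 (3.95). After Olig2 (23.4), the order in Hmgn2-/- mESCs was Sox1 (5.68) and Nes (5.16), which overlapped, and then Sox3 (4.07). For the double knockout it was Olig2 (20.6), Sox1 (6.21), Sox3 (5.28) and Nes (5.19), with overlap between Sox3 and Nes. Sox1 thus stood below Nes and Sox3 in WT mESCs and above both, without overlap, in the double knockout. Sox2, Olig2, Pax6, Zic1 and Pax3 kept their places in the order of means in the 4 genotypes. Pax6 has 26 annotated transcripts, so its merged exon length of 11694 bp overstates any single transcript.

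The 8 genes summed to 667, 670 and 671 CPM in WT and to 708, 740 and 708 in Hmgn1-/- mESCs. In Hmgn2-/- mESCs they summed to 668, 671 and 654, and in Hmgn1-/-Hmgn2-/- mESCs to 643, 627 and 666. Sox2 makes up most of each sum. Without it the sums ran from 125 to 134 CPM in WT, 126 to 146 in Hmgn1-/-, 132 to 138 in Hmgn2-/- and 127 to 138 in Hmgn1-/-Hmgn2-/- mESCs, which overlap, since the genes that were higher and the ones that were lower nearly cancel.

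Transcripts that overlap or neighbour these genes bear on how reads may have been shared, since the sources do not say whether counting used the strand. Pax6 overlaps Pax6os1 on the other strand and the end of Elp4, Zic1 overlaps Zic4, and Sox2 lies inside Sox2ot. Sox1 overlaps Sox1ot and the small RNA gene Gm25239, both on its own strand. Sox1ot is listed as Gm5607, a synonym in RefSeq, and had from 4 to 22 counts per library, far fewer than Sox1. Gm25239 is not in the table, and whether any of its reads were counted as Sox1 was not tested. Pax6os1 and Zic4 had 0 counts in every library. Sox2ot had a mean of 1.18 CPM in WT mESCs, far under Sox2, and Elp4 had log2 fold changes of 0.11, 0.18 and 0.15 in Hmgn1-/-, Hmgn2-/- and Hmgn1-/-Hmgn2-/- mESCs (adjusted p 0.429, 0.22 and 0.268). In a list of 10 overlapping or neighbouring genes, Sox2ot, Elp4 and Pax6os1 among them, 2 rose and 0 fell of 6 tested in Hmgn1-/-, 2 rose and 1 fell of 6 in Hmgn2-/-, and 2 rose and 2 fell of 7 in Hmgn1-/-Hmgn2-/- mESCs.

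Olig2 and Nes each have a neighbour with a value of its own. Olig1, the related gene 41091 bp from Olig2, had 43, 42.5 and 41.1 CPM in WT, 68.8, 72.8 and 68.8 in Hmgn1-/-, 67.9, 68.7 and 71.7 in Hmgn2-/-, and 64, 62.4 and 61 in Hmgn1-/-Hmgn2-/- mESCs. It was above WT in all 9 knockout libraries, as Olig2 was. Olig1 rose by log2 fold changes of 0.74, 0.73 and 0.57 in Hmgn1-/-, Hmgn2-/- and Hmgn1-/-Hmgn2-/- mESCs (adjusted p 2.02e-06, 0.000112 and 1.93e-05). Bcan, 7079 bp beyond the end of Nes on the other strand, rose where Nes fell. Its log2 fold changes were 0.90 (adjusted p 0.0305), 1.15 (adjusted p 0.00416) and 1.07 (adjusted p 0.00252) in the same order, from a mean of 1.16 CPM in WT. Crabp2, 17720 bp on the other side of Nes, had -0.29 (adjusted p 0.185), -0.75 (adjusted p 0.00844) and -0.79 (adjusted p 0.00216).

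Wider neural lists, also chosen with earlier results of these data known, give the setting of these genes. In all, 10 lists held 136 other genes, of which 99, 99 and 100 were tested in Hmgn1-/-, Hmgn2-/- and Hmgn1-/-Hmgn2-/- against WT. In Hmgn1-/- mESCs 23 of 99 rose (23.2%) and 37 fell (37.4%), with a median log2 fold change of -0.26 where the median of all genes was 0. In Hmgn2-/- mESCs 13 rose (13.1%) and 35 fell (35.4%), with a median of -0.35 against 0.01 over all genes. In Hmgn1-/-Hmgn2-/- mESCs 19 of 100 rose and 43 fell, with a median of -0.27 against 0. More of them fell than rose in each line. Both shares were above those over all genes, where 13.3%, 7.63% and 13.5% rose and 15.1%, 11.2% and 15.5% fell in the same order. Past the full threshold were 2 higher and 15 lower in Hmgn1-/-, 2 and 17 in Hmgn2-/-, and 3 and 18 in Hmgn1-/-Hmgn2-/- mESCs. All genes past it leaned the same way, with 125 higher and 707 lower, 109 and 615, and 184 and 706. Without WT replicate 1, 21 rose and 40 fell of 99 in Hmgn1-/- mESCs, where 14.6% and 17.4% of all genes did. The counts were then 11 and 35 of 99 in Hmgn2-/- mESCs, beside 6.73% and 11.1%, and 20 and 43 of 101 in the double knockout, beside 14% and 17%. For Hmgn2-/- mESCs they were 18 and 36 of 100 without replicate 3, beside 11.5% and 13.1%, and 10 and 34 of 100 without replicate 1, beside 6.78% and 10.7%. Past the full threshold, 3 were higher and 16 lower in Hmgn1-/- mESCs without WT replicate 1, and 3 and 20 in the double knockout. In Hmgn2-/- mESCs 1 was higher without any 1 of these 3 libraries, with 17 lower, or 18 without replicate 3.

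The fold changes of 21 other genes named in the text were also taken without these libraries, and all 105 values kept their direction, while 7 changed side of an adjusted p of 0.05. Without WT replicate 1, Bcan (0.0521), Foxa2 (0.089) and Sox4 (0.0888) missed it in Hmgn1-/- mESCs, and Sox12 (0.00844) passed it in the double knockout, values being adjusted p. Foxa2 in Hmgn2-/- mESCs passed it without replicate 3 (adjusted p 0.0424). Without Hmgn2-/- replicate 1, Sox12 missed it (adjusted p 0.0818) and Zic5 passed it (adjusted p 0.0248) in Hmgn2-/- mESCs.

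Against the full threshold 12 of the 105 values changed side. Without WT replicate 1, Klf4 in Hmgn1-/- (log2 fold change 1.01) and Pax8 in Hmgn2-/- mESCs (-1.07, adjusted p 0.00536) passed it, while Zic2 (-0.99) and Bcan (0.98) in the double knockout missed it. In Hmgn2-/- mESCs Nkx6-2 (0.95), Bcan (adjusted p 0.0143), Gfap (adjusted p 0.0105) and Mbp (adjusted p 0.0118) also missed it without that library. Leaving out Hmgn2-/- replicate 3 put Nkx6-2 at 0.96, short of it. Leaving out Hmgn2-/- replicate 1 brought Zic2 past it, at -1, and left Bcan (adjusted p 0.0136) and Gfap (adjusted p 0.0383) short of it.

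Among close relatives of the 8 genes, the Sox genes moved in both directions or not at all, while no Pax or Zic gene tested rose. Of 6 other neural Sox genes tested, 1 rose and 1 fell in Hmgn1-/-, 1 rose in Hmgn2-/- and none passed in Hmgn1-/-Hmgn2-/- mESCs, with medians of 0.02, 0.02 and 0.01. Sox12 and Sox4, named because these counts are small and so after their values were seen, had log2 fold changes of 0.27 (adjusted p 0.022) and -0.33 (adjusted p 0.0455) in Hmgn1-/- mESCs, and Sox12 had 0.32 (adjusted p 0.0313) in Hmgn2-/- mESCs. Both tested Pax genes fell in each line, with medians of -1.59, -1.32 and -1.19. They were Pax1 and Pax8, chosen for naming in the same way, and the value of Pax8 was -0.59 (adjusted p 0.0454), -0.90 (adjusted p 0.0135) and -0.78 (adjusted p 0.0116). Of 3 Zic genes 1, 1 and 2 fell. Zic2, which acts in dorsal neural tube and forebrain, had 57.2, 49.3 and 38.7 CPM in WT, 25.7, 34.2 and 21.4 in Hmgn1-/-, 25.3, 25.6 and 22.4 in Hmgn2-/-, and 22.8, 22.8 and 20.4 in Hmgn1-/-Hmgn2-/- mESCs. All knockout libraries were under all WT libraries. Zic2 fell, with log2 fold changes of -0.83 (adjusted p 0.00115), -0.98 (adjusted p 0.000591) and -1.14 (adjusted p 1.17e-05). The other gene that fell in the double knockout was Zic5, at -0.60 (adjusted p 0.00202), also chosen after its value was seen.

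Among genes of the ventral neural tube, where Olig2 is active, 4 rose and 4 fell of 12 tested in Hmgn1-/-, 3 and 3 of 13 in Hmgn2-/-, and 5 and 3 of 13 in Hmgn1-/-Hmgn2-/- mESCs. The list medians were -0.34, -0.32 and -0.15. Nkx6-2, a homeobox gene of ventral progenitors, had 7.41, 8.26 and 9.55 CPM in WT, 19, 19.2 and 27 in Hmgn1-/-, 15, 17.4 and 19.4 in Hmgn2-/-, and 16.5, 20.9 and 20.5 in Hmgn1-/-Hmgn2-/- mESCs. The knockouts overlapped with each other and lay well above WT. Nkx6-2 rose by 1.37 (adjusted p 1.25e-05), 1.05 (adjusted p 0.000484) and 1.2 (adjusted p 1.17e-05) on the log2 scale. Gli1, a target and effector of Sonic hedgehog, fell in contrast, with log2 fold changes of -0.60, -0.75 and -1.04 (adjusted p 7.28e-05, 0.000374 and 1.11e-06). Foxa2, a floor plate gene that endoderm also expresses, had log2 fold changes of 1.12 (adjusted p 0.0385), 0.98 (adjusted p 0.0657) and 2.03 (adjusted p 0.000151).

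Anterior neural plate genes had medians of -0.78, -0.79 and -0.71, with 2 rising and 4 falling of 12 in Hmgn1-/-, 2 and 6 of 12 in Hmgn2-/-, and 2 and 5 of 13 in Hmgn1-/-Hmgn2-/- mESCs. Pou3f1, a POU factor of the early neural plate, had 99, 102 and 94.9 CPM in WT, 38.7, 41.4 and 36.6 in Hmgn1-/-, 36.8, 34.1 and 31.8 in Hmgn2-/-, and 37, 33.6 and 36.8 in Hmgn1-/-Hmgn2-/- mESCs. The WT libraries stood far above all others. Its log2 fold changes were -1.34 (adjusted p 1.99e-08), -1.51 (adjusted p 2.02e-06) and -1.46 (adjusted p 3.97e-09).

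Proneural and Notch genes had medians of -0.23, -0.14 and -0.27, with 4 rising and 5 falling of 17, 0 and 5 of 17, and 2 and 8 of 16. Dll1, a Notch ligand of newborn neurons, had 7.32, 4.98 and 4.55 CPM in WT, 1.88, 2.01 and 1.74 in Hmgn1-/-, 1.8, 1.67 and 0.595 in Hmgn2-/-, and 2.56, 1.63 and 1.18 in Hmgn1-/-Hmgn2-/- mESCs. No knockout library reached the WT range, and Hmgn2-/- replicate 3 was the lowest. Dll1 fell, with log2 fold changes of -1.59 (adjusted p 0.000103), -1.98 (adjusted p 0.00135) and -1.63 (adjusted p 0.000393).

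Progenitor filament and adhesion genes, the class of Nes, moved both ways: 5 rose and 6 fell of 13 in Hmgn1-/-, 3 and 6 in Hmgn2-/-, and 5 and 6 in Hmgn1-/-Hmgn2-/- mESCs, with medians of 0.13, 0.10 and 0.11. Nefm, a neurofilament gene of this list, fell, with log2 fold changes of -1.94, -2.12 and -1.40, as did the adhesion gene Ncam1, with -0.87, -1.16 and -1.19. Neuronal genes had medians of -0.35, -0.35 and -0.33, with 3 rising and 6 falling of 16, 1 and 7 of 15, and 2 and 9 of 16. Mapt, which encodes the microtubule protein tau, went from 45.8 ± 4.55 CPM (SD, n = 3) in WT to 16.8, 17.8 and 16.6 in Hmgn1-/-, Hmgn2-/- and Hmgn1-/-Hmgn2-/- mESCs, log2 fold changes of -1.44, -1.36 and -1.46. Glial genes had 2 rising and 2 falling of 7 in each line, with medians of 0.39, 0.34 and 0.19. Gfap, the astrocyte filament gene, rose by 0.90, 1.28 and 1.31 on the log2 scale, and the myelin gene Mbp fell, with -1.71, -1.46 and -1.27. Aldh1l1 of the same list also fell, with -1.31, -1.28 and -1.01. Neural crest and placode genes had medians of -0.51, -0.50 and -0.43, with 2 rising and 6 falling, 1 and 3, and 1 and 6 of 11 tested.

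**Figure D4:**
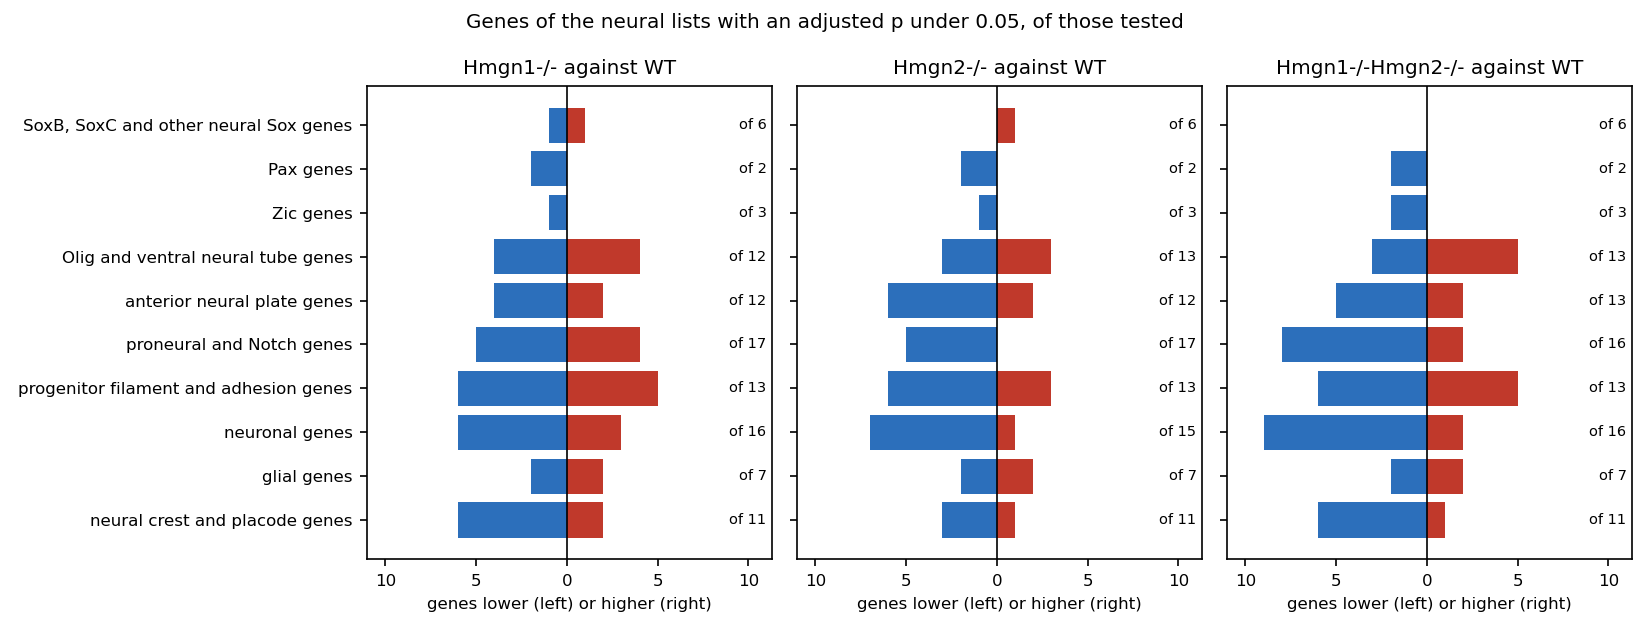
Number of genes that fell (blue, left of 0) or rose (red, right of 0) at an adjusted p under 0.05 in each of 10 neural lists (vertical axis), for the 3 knockout lines against WT, with the number tested at the right. Blue bars are longer than red in all 3 panels for every list except the Sox genes, the Olig and ventral neural tube genes and the glial genes.

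Gene by gene, the pattern over the 12 libraries was compared with that of 11549 genes of at least 50 counts on average by Pearson's r of log2 CPM, where the 12 points fall into 4 genotype groups. Most like Nes were Plac8 (r 0.97), Msrb2 (r 0.969) and Ctr9 (r 0.966). Olig2 was most like Gna14 (r 0.988), Znrf1 (r 0.985) and its neighbour Olig1 (r 0.983). For Sox1 they were Zdhhc8 (r 0.973), Ints8 (r 0.971) and Bcl2l13 (r 0.966), genes whose log2 fold changes in the double knockout were only 0.43, 0.24 and 0.30. Sox3 was most like Zscan4c (r 0.951), Col2a1 (r 0.95) and Serpine2 (r 0.947), and Zscan4c has near-identical copies among which reads may be shared. Zscan4c fell, with log2 fold changes of -3.97 and -3.94 in the single knockouts and -1.89 in the double, the same shape as Sox3. Pax6 came closest to Atp6v0d1 (r 0.898), Rxrg (r 0.894) and Atrip (r 0.874), and Sox2 to Phkg2 (r 0.854), H13 (r 0.852) and Klc3 (r 0.851).

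Markers of the cultured cells and of other lineages were read beside these results. The 12 pluripotency genes summed to 7070, 7320 and 7370 CPM in WT, 7220, 7480 and 7710 in Hmgn1-/-, 6770, 7370 and 7980 in Hmgn2-/-, and 6750, 7460 and 7440 in Hmgn1-/-Hmgn2-/- mESCs. The groups overlapped, none of the 12 was at 0, and Pou5f1 was the most abundant at a mean of 1890 CPM. Of these, 3 rose and 2 fell in Hmgn1-/-, 3 and 1 in Hmgn2-/-, and 4 and 1 in Hmgn1-/-Hmgn2-/- mESCs. Klf4 rose by 0.93, 0.69 and 0.74 and Nanog fell, with -0.32, -0.50 and -0.45, on the log2 scale.

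The 11 primitive endoderm genes summed to 16.2, 17.8 and 18.3 CPM in WT, 129, 101 and 106 in Hmgn1-/-, 157, 136 and 99.4 in Hmgn2-/-, and 324, 323 and 301 in Hmgn1-/-Hmgn2-/- mESCs. They were higher in every knockout library than in WT and highest in the double knockout. Of 9 tested, 9, 8 and 9 rose and none fell, Cubn was the most abundant at a mean of 48.2 CPM, Ttr had 0 counts and Afp was at the floor. The part of these genes in the neural values was not tested.

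Mesoderm genes, 10 in number, summed to 132, 139 and 140 CPM in WT, 255, 246 and 233 in Hmgn1-/-, 285, 239 and 273 in Hmgn2-/-, and 294, 269 and 269 in Hmgn1-/-Hmgn2-/- mESCs. The sums were higher in all knockout libraries, but Tcf15 alone had a mean of 218 CPM. Without Tcf15 the sums were 14.5, 19.5 and 20 CPM in WT and lower in every knockout library, at 10.2 to 13.5 CPM. Of these genes 3 rose and 3 fell of 8 tested, 1 and 3 of 8, and 2 and 3 of 9, with Msgn1 at the floor. The 8 trophoblast genes summed to 64.1, 70.3 and 81.9 CPM in WT, 36.1, 40.2 and 41.4 in Hmgn1-/-, 45.3, 44.2 and 43.6 in Hmgn2-/-, and 33.2, 35.4 and 37.4 in Hmgn1-/-Hmgn2-/- mESCs. They were lower in every knockout library. Of 6 tested 4, 4 and 5 fell and none rose, Tfap2c was the most abundant at 31.6 CPM and Tpbpa had 0 counts.

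Fibroblast genes, 9 in number, summed to 21.4, 17.8 and 22.2 CPM in WT, 6.98, 5.83 and 6.47 in Hmgn1-/-, 6.37, 7.08 and 6.9 in Hmgn2-/-, and 5.98, 8.99 and 7.67 in Hmgn1-/-Hmgn2-/- mESCs. They were low in all libraries and lower in the knockouts. Of 4 tested 3 fell in each line, Thy1 was the most abundant at 5.89 CPM, Lum and Fap had 0 counts, and Dcn was at the floor. The 9 muscle genes summed to 99.6, 94 and 113 CPM in WT, 33.1, 34.1 and 42.1 in Hmgn1-/-, 38.3, 39.3 and 48.1 in Hmgn2-/-, and 34.2, 37.5 and 40.1 in Hmgn1-/-Hmgn2-/- mESCs. Of 5 tested 4 fell in each line and 1 rose in the double knockout, Tagln was the most abundant at 22.5 CPM, and Myf5 was at the floor. The 8 endothelial genes summed to 49.4, 47.9 and 48.1 CPM in WT, 35.4, 37 and 34.9 in Hmgn1-/-, 30.7, 32.2 and 36.8 in Hmgn2-/-, and 36.3, 36.9 and 38.5 in Hmgn1-/-Hmgn2-/- mESCs. Of 5, 6 and 7 tested 4 fell in each line and 1 rose in the double knockout, Egfl7 was the most abundant at 28.6 CPM, and Emcn had 0 counts. Kdr counts in both the mesoderm and the endothelial list, and Tfap2c in both the trophoblast and the neural crest list. Nes can be expressed in mesenchyme, muscle and endothelium as well as in neural progenitors, and the part of these lists in its fall was not tested.

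**Figure D5:**
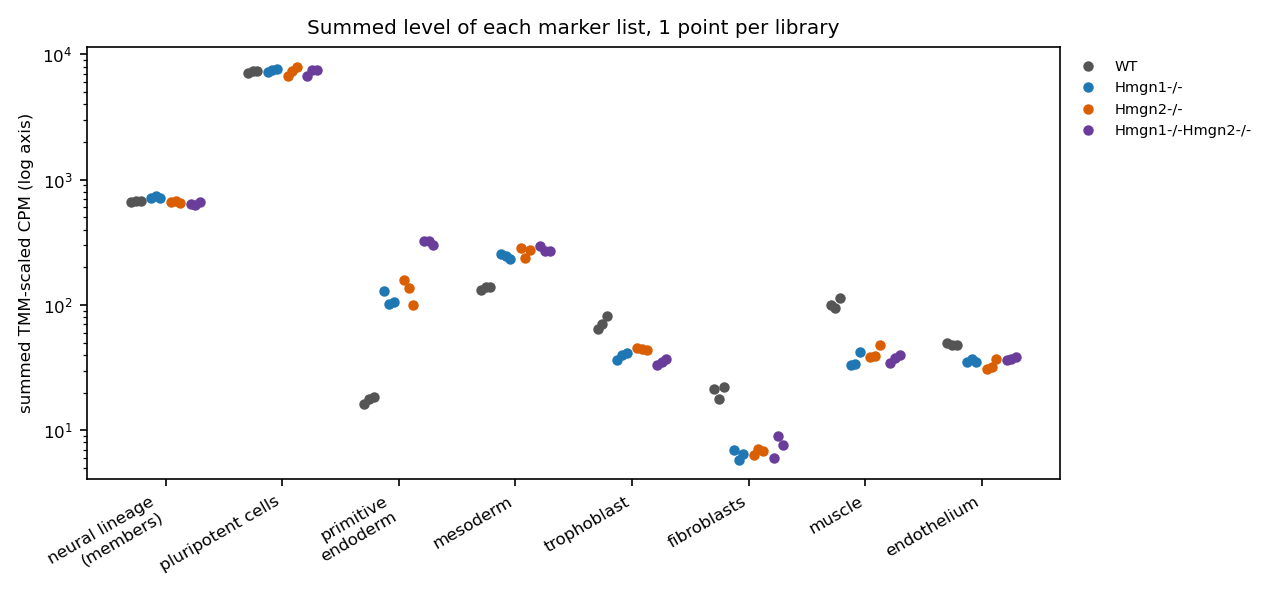
Summed TMM-scaled CPM (vertical log axis) of the 8 neural lineage genes and of 7 marker lists in the 12 libraries, with 1 point per library and colours for genotypes. The neural and pluripotency sums are nearly level, the primitive endoderm sum is highest in Hmgn1-/-Hmgn2-/- mESCs, and the trophoblast, fibroblast, muscle and endothelium sums are lower in every knockout library than in WT.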

How the data were processed

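Poly-A RNA of mESCs was sequenced as paired ends of 150 bp and aligned with STAR to mm10, and the authors deposited counts per gene and library without normalization. The counting program and annotation are not named in the sources used. Genotype and replicate were taken from the sample labels. Tests used edgeR 4.0.16 in R 4.3.3 (TMM scaling, filterByExpr at its defaults, the quasi-likelihood test and Benjamini-Hochberg adjustment) on the 6 libraries of each comparison, or on all 12 for the F test and the contrast of double and single knockouts. The alternatives were DESeq2 1.42.0, RLE scaling, no filter, all 12 libraries in 1 fit, the replicate number as a block, an adjusted p under 0.05 with no fold limit, CPM by library total for levels, and each replicate left out. The contrast with the single knockouts, the counts at an unadjusted p and the wider lists and other named genes without single libraries were added after seeing the data.

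Members and lists were chosen with earlier results of these data known. By rule, the text could name up to 4 genes of each neural list (past the threshold against WT, averaging 20 counts or more, largest mean fold change first), any neighbour or marker gene averaging 20 counts or more, and the 3 genes of highest r for each member. Not all are named, and some genes outside this rule are: Sox4, Sox12, Pax1, Pax8 and Zic5 after their values were seen, and a few marker and neighbouring genes with fewer counts. Libraries of the same replicate number were checked for pairing: after removal of group means, r was over 0.1 in 16 of 18 pairs (median 0.267). For different numbers the median was -0.146. Removal of the group means itself pushes r for different numbers below 0 where r for the same number is above 0. That median is therefore not a separate comparison. Coordinates and promoters come from RefSeq GRCm38.p6, and exon lengths and overlaps from GENCODE of the same build. The steps were tested on simulated data.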

Additional observations from a re-analysis of the deposited data

Results flagged for a closer look

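For 3 genes the double knockout line departed from the sum of the single knockout lines, by a contrast in edgeR (adjusted p under 0.01). Each line is 1 clone, so genotype and clone cannot be told apart here. The departure from the sum of the single log2 fold changes was 0.71 for Nes (SE 0.138, adjusted p 0.0029), 1.34 for Sox3 (SE 0.19, adjusted p 0.000276) and -0.91 for Olig2 (SE 0.102, adjusted p 3.45e-05). Each double knockout library of Nes, Sox3 and Olig2 lay on the same side of WT as the single knockouts, and the contrast was chosen after the data had been seen.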

How the results depend on the processing

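Of 563 fold changes under an alternative, 539 kept their direction and their side of the threshold, 16 moved past it (under the looser threshold except those named below), 1 fell short of it and 7 changed direction. Against WT, under alternatives other than the looser threshold, 207 of 209 kept both, and none changed direction. The 2 exceptions were Sox3 in Hmgn1-/- mESCs without WT replicate 1 or Hmgn1-/- replicate 2, so that the number past the threshold there ranged from 0 to 1 with a library left out. With an adjusted p under 0.05 and no fold limit, 5, 4 and 4 genes passed in Hmgn1-/-, Hmgn2-/- and Hmgn1-/-Hmgn2-/- against WT, by the construction of that limit.

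All 7 changes of direction were small values between knockout lines, and the cause was not tested. With a library left out, the log2 fold change in Hmgn2-/- against Hmgn1-/- ranged from -0.001304 (without Hmgn1-/- replicate 1) to 0.1119 for Olig2, from -0.06745 (without Hmgn1-/- replicate 3) to 0.1792 for Sox3, and from -0.04547 (without Hmgn2-/- replicate 1) to 0.2321 for Sox1. Without Hmgn2-/- replicate 1 that of Sox3 was -0.00574. In Hmgn1-/-Hmgn2-/- against Hmgn2-/- it ranged from -0.03743 (without Hmgn1-/-Hmgn2-/- replicate 1) to 0.05303 for Nes, with -0.01154 without Hmgn2-/- replicate 2, and from -0.001309 (without Hmgn2-/- replicate 3) to 0.2787 for Sox1.

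For the departure from the sum, Nes missed the limit without Hmgn2-/- replicate 2 (0.6914, adjusted p 0.0103) and Sox1 passed it without Hmgn2-/- replicate 3 (-0.5732, adjusted p 0.00828). The number of these genes that differed among the 4 genotypes ranged from 4 to 5 with a library left out and was 6 by DESeq2. The share of all genes called by that DESeq2 test is not given, so the 6 cannot be read against it. With the replicate block, Sox2 had an adjusted p of 0.000237 in Hmgn1-/-Hmgn2-/- against Hmgn1-/- mESCs, against 0.0725 without it. Of 32 levels, 31 moved by less than 1 SD with CPM by library total, and that of Sox1 in WT mESCs became 17.4 CPM. Depth limits Pax3, at the floor, and Zic1, with 16 to 41 counts per group.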
